A study of Mus musculus with 6 samples.

Results

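This is an account of 8 genes that encode neurotrophic factors, their receptors or proteins that travel with them, among 55471 genes counted in hippocampal RNA of adult mice. They were taken by name: the neurotrophins Bdnf and Ntf3, the receptors Ntrk2, Ntrk3 and Ngfr, the sorting receptor Sort1, and the secreted or membrane-anchored neuronal proteins Vgf and Nrn1. The choice was made with earlier results of these data known. Each name matched 1 gene, and all 8 passed the filter on low counts that left 17981 genes for testing. The comparison asked how their transcripts differed once CBP was lost from excitatory neurons of the forebrain. CBP is the lysine acetyltransferase and transcriptional coactivator encoded by Crebbp.

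There were 3 Control and 3 CBP-ifKO libraries of total RNA. CBP-ifKO mice carried floxed Crebbp and the Camk2a-creERT2 transgene, whose tamoxifen-inducible recombinase is made in excitatory neurons of the forebrain. Glia, vascular cells and interneurons are not targeted by this driver, and their RNA is part of every library. Control mice were littermates, described in the treatment protocol as lacking creERT2, although a further label of these samples names the transgene. Esr1, part of which is built into the recombinase, lay between 5.65 and 6.29 CPM ( read counts scaled to a common library size with TMM) in Control and between 63.6 and 69.4 CPM in CBP-ifKO. All animals were C57BL/6, aged 3 to 6 months, and had received tamoxifen. Each library pooled hippocampi of several females, according to the study's methods. Nothing in the labels ties libraries to a preparation batch, so p-values measure the spread between pooled samples.

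Neurotrophins are made as proproteins, which convertases and plasmin trim to the mature factor. Mature BDNF binds the receptor tyrosine kinase TrkB (Ntrk2) and NT-3 binds TrkC (Ntrk3), whereas the uncut forms bind p75 (Ngfr) together with sortilin (Sort1). In the hippocampus BDNF is made mainly by excitatory neurons, stored in dense core vesicles and released with activity. Its gene has several alternative first exons, each with its own promoter, joined to 1 shared coding exon. VGF is a granin-like precursor of secreted peptides, and neuritin (Nrn1) is a small membrane-anchored protein that promotes the growth of neurites and synapses. Both are known as genes induced by BDNF and by neuronal activity.

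The promoters of the members were searched for the element bound by CREB, a factor that recruits CBP. Windows of 250 bases upstream of annotated transcript starts (RefSeq, GRCm38.p6) were held for 4 of the 8 genes: 7 windows for Bdnf, 2 for Ntf3 and 1 each for Ntrk2 and Ngfr. By GENCODE annotation, 166 bases of 1 Ntf3 window and 37 bases of the Ngfr window lie in exons of the same gene. The cAMP response element TGACGTCA, searched as an exact match on both strands, was in none of these windows and in 1.546% of all 32851 windows of the same length. At that share, no match in so few windows says little, and near matches were not searched. Its half-site, TGACG on either strand and also contained in the full element, was in 17.765% of all windows. It was in 1 of the 7 Bdnf windows, at position -35 counted from -1 just before the start, and in none of the others. With the letters before it, this half-site reads TCACGTCA, which differs from the full element in 1 letter. The 3 windows below are shown in 5′ to 3′ direction because they let the Bdnf start with the half-site be set beside the most upstream Bdnf start and beside the receptor gene. Capitals mark the half-site.
Bdnf, chr2:109692186-109692435, plus strand: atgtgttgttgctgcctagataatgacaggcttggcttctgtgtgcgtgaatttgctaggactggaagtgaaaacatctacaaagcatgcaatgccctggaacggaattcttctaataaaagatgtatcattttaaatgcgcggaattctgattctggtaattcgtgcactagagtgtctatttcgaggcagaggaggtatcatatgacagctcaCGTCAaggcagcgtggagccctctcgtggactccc
Bdnf, most upstream start, chr2:109674450-109674699, plus strand: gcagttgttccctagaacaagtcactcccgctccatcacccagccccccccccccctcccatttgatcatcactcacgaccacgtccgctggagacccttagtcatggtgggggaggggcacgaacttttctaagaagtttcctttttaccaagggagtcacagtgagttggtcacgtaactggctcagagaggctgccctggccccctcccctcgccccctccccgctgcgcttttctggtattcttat
Ntrk2, chr13:58806319-58806568, plus strand: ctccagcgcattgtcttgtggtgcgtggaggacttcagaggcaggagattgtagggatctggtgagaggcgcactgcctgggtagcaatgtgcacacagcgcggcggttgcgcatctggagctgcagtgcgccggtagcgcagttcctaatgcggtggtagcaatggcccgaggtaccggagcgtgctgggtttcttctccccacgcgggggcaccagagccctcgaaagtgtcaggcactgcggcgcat
A match is a description of letters, and gene counts do not say which start was used. All 11 annotated Bdnf transcripts, from 9 starts, are summed in 1 count.

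Total counts lay between 10199008 and 14950257 per library, so that 1 read was worth between 0.0657 and 0.0992 CPM. Crebbp, the targeted gene, had 208.6, 156.4 and 208.5 CPM in the Control libraries, in the order of their replicate numbers, and 108.6, 87.15 and 99.41 CPM in those of CBP-ifKO. Its log2 fold change (CBP-ifKO relative to Control throughout) was -0.96 (edgeR adjusted p 3.63e-05). At an adjusted p under 0.05, edgeR called 1149 of 17981 genes (6.39%), of which 897 were lower and 252 higher. The lower genes were 78.1% of the calls, against 56.5% when libraries were scaled by their totals alone, 66.1% with trends on GC and length removed, and 60.6% when the replicate block was added to that removal. In whole tissue, fewer cells of a type and less RNA per cell cannot be told apart.

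Of the 8 members, Bdnf, Vgf and Nrn1 fell in CBP-ifKO and none rose. These 3 calls stand against a background of 4.99% of all tested genes called lower. The groups were apart for Bdnf, Ntf3, Vgf, Nrn1 and Sort1, 5 of 8 members, against 25.6% of all genes. In these 5 all CBP-ifKO libraries were below all of Control, as in 13.9% of all genes. The groups of Ntrk2, Ntrk3 and Ngfr overlapped. The median log2 fold change of the 8 members was -0.55, beside -0.003 over all genes tested, and all 8 values were below 0, as were 50.7% of all genes. The members were chosen with earlier results of these data known, so their distance from all genes is partly set by that choice. Bdnf and Nrn1 are on the study's own list of genes lower in its screens, which was drawn up partly on these samples, so their direction here is not independent evidence.

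**Figure D1:**
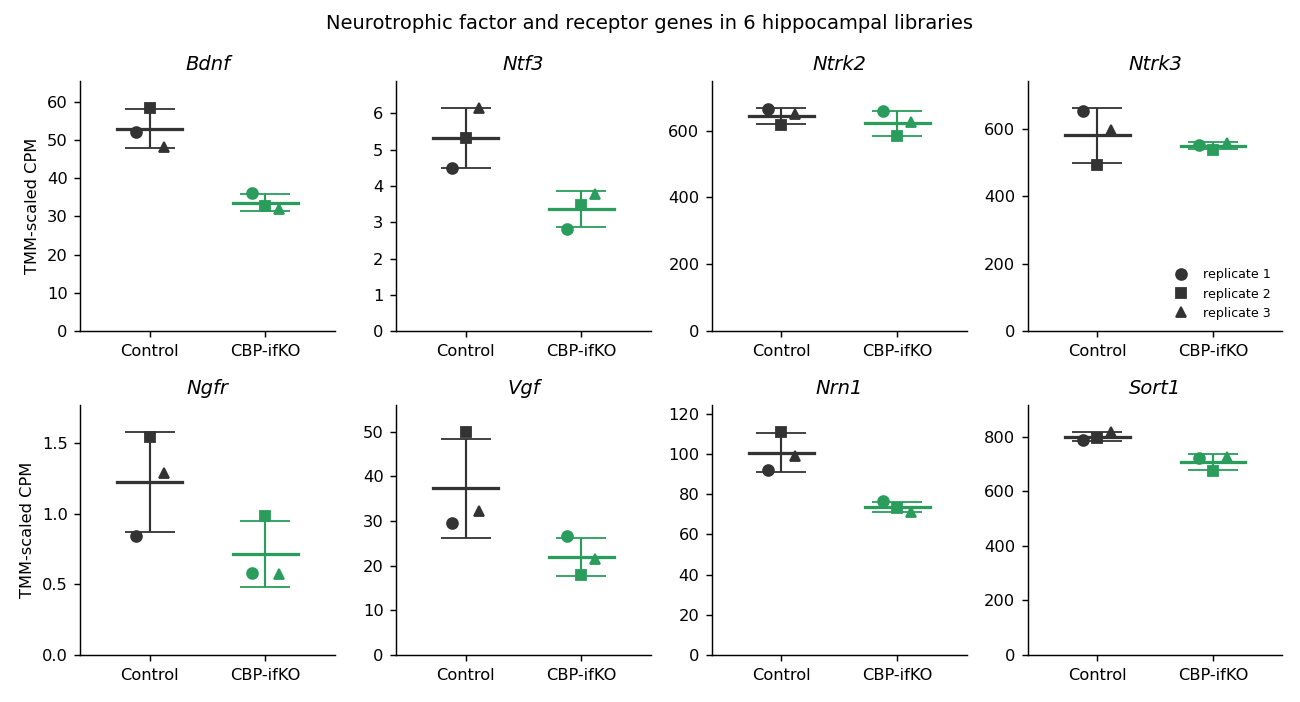
TMM-scaled CPM of the 8 genes in each library, Control in black and CBP-ifKO in green. Marker shapes give the replicate number, horizontal lines the mean and bars the SD of 3 libraries. The groups are apart for Bdnf, Ntf3, Vgf, Nrn1 and Sort1, and they overlap for Ntrk2, Ntrk3 and Ngfr.

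Per length of exon, Sort1 and the kinase receptors Ntrk2 and Ntrk3 were above the ligands Bdnf and Ntf3, and Ngfr was below both. Sort1 was at 106 ± 2.20 RPKM (CPM per kilobase of deposited exon length, mean ± SD, n = 3) in Control, the highest level of the 8. Nrn1 followed with 44.8 ± 4.31, Ntrk2 with 33.4 ± 1.26 and Ntrk3 with 19.3 ± 2.71 RPKM. Vgf was at 12.6 ± 3.74, Bdnf at 8.51 ± 0.827, Ntf3 at 3.11 ± 0.479 and Ngfr at 0.356 ± 0.103 RPKM in Control. The order was the same in CBP-ifKO, with Sort1 at 93.5 ± 3.71, Nrn1 at 32.8 ± 1.2, Ntrk2 at 32.2 ± 1.96, Ntrk3 at 18.2 ± 0.355, Vgf at 7.40 ± 1.45, Bdnf at 5.41 ± 0.345, Ntf3 at 1.96 ± 0.291 and Ngfr at 0.207 ± 0.0682 RPKM. The libraries of neighbouring genes overlapped at a single place in each group: Ntrk3 and Vgf in Control, and Nrn1 and Ntrk2 in CBP-ifKO. These levels sum every annotated isoform over 1 exon length.

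Bdnf encodes brain-derived neurotrophic factor, the main ligand of TrkB and a regulator of synaptic strength in the adult hippocampus. Bdnf (ENSMUSG00000048482, GRCm38 chromosome 2, 109674700 to 109727007, plus strand, protein coding) was measured at 52.2, 58.4 and 48.2 CPM in Control and at 36.05, 32.8 and 32.01 CPM in CBP-ifKO, each for replicates 1 to 3. All CBP-ifKO libraries were below all Control libraries, and they lay closer together than the Control libraries did. The mean fell from 52.93 ± 5.14 to 33.62 ± 2.14 CPM (SD, n = 3), leaving 63.5% of Control. This gave a log2 fold change of -0.66 (SE 0.085, 95% interval -0.84 to -0.48, edgeR adjusted p 2.51e-04). The values rest on 486 to 680 reads per Control library and 372 to 499 per CBP-ifKO library. Bdnf shares 14.4% of its exon bases with the antisense gene Gm45346 on the opposite strand, which held at most 5 reads in a library.

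Ntf3 encodes neurotrophin-3, the ligand of TrkC. It (ENSMUSG00000049107, chromosome 6, 126101412 to 126166910, minus strand, protein coding) had 4.506, 5.325 and 6.149 CPM in the Control libraries and 2.81, 3.483 and 3.785 CPM in the CBP-ifKO libraries. The groups did not overlap, although the highest CBP-ifKO and the lowest Control library were close. The means were 5.327 ± 0.821 and 3.36 ± 0.499 CPM, a CBP-ifKO level of 63.1% of Control. The log2 fold change of -0.65 (SE 0.19, 95% interval -1.06 to -0.24) missed the threshold, with an edgeR adjusted p of 0.055. It had only 29 to 62 reads per library and its interval was wider than that of Bdnf, whose fold change was of like size. Without Control replicate 1 the value was -0.75 and passed (edgeR adjusted p 0.0409), and with the replicate block the adjusted p was 0.0431. It did not pass with DESeq2 (-0.65, adjusted p 0.156) or limma-voom (-0.64, adjusted p 0.0642). No other fit without 1 library passed, and without Control replicate 3 the value was -0.54 (edgeR adjusted p 0.229).

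Vgf, whose peptides are cut from a precursor stored in dense core vesicles, fell furthest of the 3 called members and also varied most. Vgf (ENSMUSG00000037428, chromosome 5, 137026392 to 137033351, plus strand, protein coding) was at 29.57, 50.07 and 32.33 CPM in Control and at 26.55, 18.01 and 21.48 CPM in CBP-ifKO. The groups did not overlap, but Control replicate 1 was near CBP-ifKO replicate 1, and Control replicate 2 was far above the other Control libraries. The mean fell from 37.33 ± 11.1 to 22.01 ± 4.30 CPM, or 59.0% of Control, with a log2 fold change of -0.78 (SE 0.17, 95% interval -1.14 to -0.43, edgeR adjusted p 0.00904). Without Control replicate 2 the log2 fold change was -0.50 (edgeR adjusted p 0.0194), a change more than 1.5 times smaller. Leaving out CBP-ifKO replicate 2 ended the call (-0.64, edgeR adjusted p 0.0889), as did leaving out CBP-ifKO replicate 3 (-0.76, 0.0538). It was also lost with DESeq2 (adjusted p 0.107) and with robust dispersions in edgeR (0.167). The gene is rich in GC (64.1%), and after removal of the trends on GC content and length in each library the log2 fold change was -0.48 (edgeR adjusted p 0.029), or 0.00379 when the replicate block was added.

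Nrn1, the gene of neuritin, had the smallest of the 3 called fold changes and a narrow spread. Nrn1 (ENSMUSG00000039114, chromosome 13, 36725361 to 36735131, minus strand, protein coding) was measured at 92.19, 111.3 and 98.98 CPM in Control and at 76.46, 73.41 and 71.1 CPM in CBP-ifKO. The lowest Control library was well above the highest CBP-ifKO library. The mean fell from 100.8 ± 9.69 to 73.66 ± 2.69 CPM, 73.1% of Control (log2 fold change -0.46, SE 0.074, 95% interval -0.61 to -0.30, edgeR adjusted p 0.00133). Fars2 overlaps 22.3% of the Nrn1 exon bases from the other strand and encodes a mitochondrial tRNA synthetase. Its Control level of 23.48 ± 1.09 CPM and its CBP-ifKO level of 22.47 ± 2.20 CPM differed by less than the spread (edgeR adjusted p 0.792). Whether the counting used the strand is not given in the sources used here.

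Neither kinase receptor passed the threshold, and the groups of both overlapped. Ntrk2 (ENSMUSG00000055254, chromosome 13, 58806569 to 59133970, plus strand, protein coding), the gene of TrkB, had 664.0, 616.8 and 650.0 CPM in Control and 658.3, 582.8 and 625.1 CPM in CBP-ifKO. Replicate 2 was the lowest library of each group. The means were 643.6 ± 24.3 and 622.1 ± 37.8 CPM, with a log2 fold change of -0.049 (SE 0.059, 95% interval -0.17 to 0.076, edgeR adjusted p 0.699). A count for the whole gene adds the full-length kinase form to the truncated form, which astrocytes are known to make in abundance. Of the 10 annotated transcripts, 7 are coding.

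Ntrk3 (ENSMUSG00000059146, chromosome 7, 78175959 to 78738012, minus strand, protein coding), the gene of TrkC, had 653.6, 492.2 and 597.2 CPM in Control and 552.7, 538.7 and 559.8 CPM in CBP-ifKO. All 3 CBP-ifKO libraries lay inside the Control range, whose lower end was Control replicate 2 alone, and were below both other Control libraries. The means were 581.0 ± 81.9 and 550.4 ± 10.7 CPM, and the log2 fold change was -0.078 (SE 0.079, 95% interval -0.24 to 0.088, edgeR adjusted p 0.631). Without Control replicate 2 the log2 fold change was -0.18 (edgeR adjusted p 0.0542), and without Control replicate 1 it was 0.015 (edgeR adjusted p 0.943).

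Ngfr, which encodes the p75 receptor, was near the lower end of what these libraries could measure. Ngfr (ENSMUSG00000000120, chromosome 11, 95568818 to 95587735, minus strand, protein coding) had 9, 18 and 13 reads in Control and 6, 15 and 7 reads in CBP-ifKO. This gave 0.845, 1.546 and 1.289 CPM in Control and 0.5815, 0.9859 and 0.576 CPM in CBP-ifKO, where CBP-ifKO replicate 2 was above Control replicate 1. The means of 1.227 ± 0.355 and 0.7144 ± 0.235 CPM gave a log2 fold change of -0.73 (SE 0.38, 95% interval -1.53 to 0.066, edgeR adjusted p 0.281). At this depth the interval includes both no change and a loss larger than that of any other member.

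Sort1 encodes sortilin, which carries proBDNF into the regulated secretory pathway and acts as a co-receptor of p75. Sort1 (ENSMUSG00000068747, chromosome 3, 108284082 to 108361511, plus strand, protein coding) had 787.8, 795.2 and 819.6 CPM in Control and 723.4, 675.4 and 724.7 CPM in CBP-ifKO. The groups did not overlap, and the libraries of each were close together. The means were 800.8 ± 16.6 and 707.9 ± 28.1 CPM, so that the CBP-ifKO level was 88.4% of Control. The log2 fold change of -0.18 (SE 0.054, 95% interval -0.29 to -0.064) had an edgeR adjusted p of 0.0612, just above the threshold. It was past the threshold without Control replicate 2 (-0.17, edgeR adjusted p 0.0466), with DESeq2 (adjusted p 0.0329), with limma-voom (0.0303) and with robust dispersions in edgeR (0.0442). It did not pass in 7 of the 11 other settings with all libraries. These included library totals only (-0.13, edgeR adjusted p 0.156) and GC and length trends removed (-0.15, 0.0801). No other fit without 1 library passed, and without Control replicate 3 the edgeR adjusted p was 0.243 (-0.16). The gene shares 4.47% of its exon bases with the antisense gene Gm12523 on the opposite strand, which was at 0.1556 ± 0.109 CPM in Control.

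**Figure D2:**
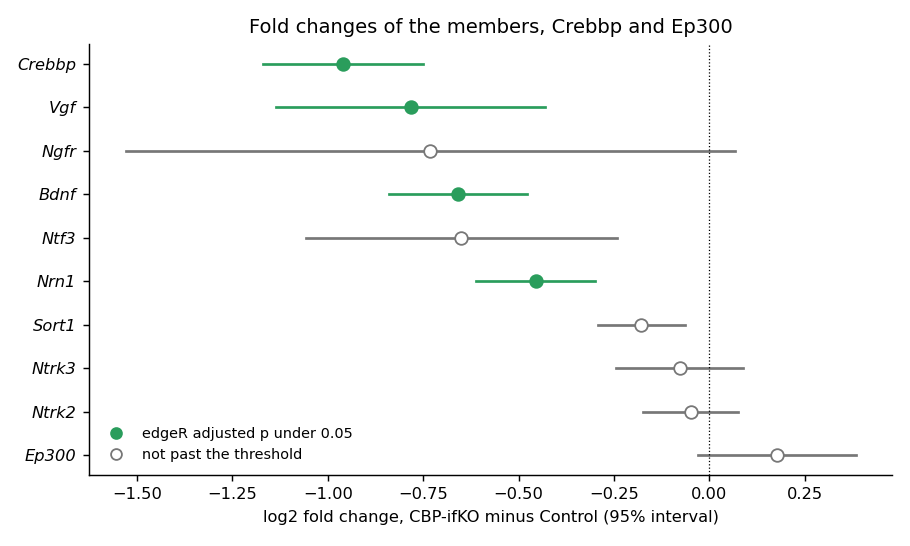
Log2 fold change (CBP-ifKO minus Control, horizontal axis) of the 8 genes, of Crebbp and of its paralogue Ep300, ordered by size, with 95% intervals from edgeR. Filled points have an adjusted p under 0.05. Vgf at -0.78, Bdnf at -0.66 and Nrn1 at -0.46 are filled, whereas the intervals of Ntrk2, Ntrk3 and Ngfr include 0.

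Control replicate 2 was the highest library for Bdnf, Vgf, Nrn1 and Ngfr, and the lowest Control library for Ntrk2 and Ntrk3. Without it the log2 fold change was -0.57 for Bdnf and -0.37 for Nrn1, and both stayed past the threshold in edgeR (adjusted p 0.00224 for Nrn1). Over the 6 fits that left out 1 library each, the log2 fold change of Bdnf ran from -0.72 to -0.57 and that of Nrn1 from -0.52 to -0.37. Both were called in all of these fits and in all 11 other settings with all libraries.

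**Figure D3:**
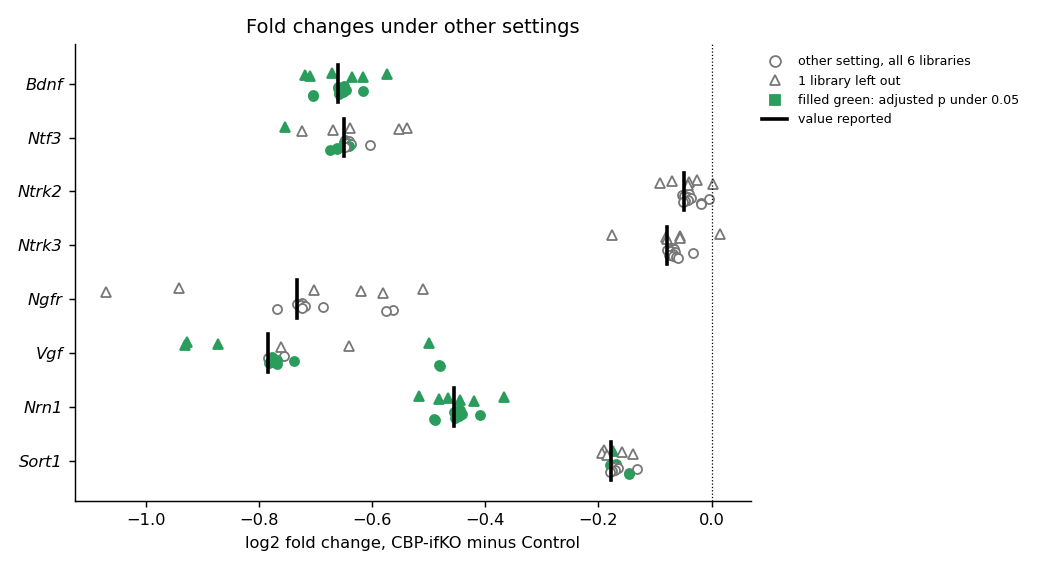
Log2 fold change (CBP-ifKO minus Control) of each of the 8 genes, with vertical bars at the value given in the text, circles for other settings with all 6 libraries and triangles for fits without 1 library. Filled points have an adjusted p under 0.05: Bdnf and Nrn1 are filled throughout, Vgf spreads from -0.93 to -0.48, and Ntrk2 and Ntrk3 are never filled.

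Ratios within a library do not depend on its scaling. The log2 ratio of Bdnf to Ntrk2, ligand to receptor, was -3.67, -3.40 and -3.75 in Control and -4.19, -4.15 and -4.29 in CBP-ifKO. It was lower in all 3 CBP-ifKO libraries, by 0.60 in the mean (difference -0.60, exact two-sided permutation p 0.1, the smallest that 3 against 3 libraries allow, and 0.4 after adjustment over the 4 ratios compared). The log2 ratio of Bdnf to Ntf3 differed by 0.01 between the groups (exact permutation p 1.0), and that of Ntrk2 to Ntrk3 by 0.02 (exact permutation p 0.9). Nrn1 to Vgf differed by 0.29 (exact permutation p 0.4, adjusted 0.8). With 3 libraries a group, no ratio could pass the threshold.

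Around the members, 110 further genes of neurotrophin signalling were followed in 7 lists. Of these, 100 were tested and 15 were called, 11 lower against a background of 4.99% and 4 higher against a background of 1.4%. Their median log2 fold change was -0.047 and 65% were below 0, beside -0.003 and 50.7% for all genes. The counts of each list below are to be read beside the same background shares. The lists were chosen with earlier results of these data known.

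Genes that process or sort proneurotrophins included 3 that fell. In the processing list 2 of 10 tested genes were lower and none was higher (median log2 fold change -0.20), beside 4.99% of all genes tested called lower. Pcsk1, a convertase of the regulated secretory pathway, fell from 44.07 ± 3.26 to 28.99 ± 1.73 CPM (-0.60 in log2, SE 0.084, edgeR adjusted p 4.2e-04). Plat, the tissue plasminogen activator that produces plasmin, fell from 42.83 ± 3.72 to 29.17 ± 4.39 CPM (-0.56, SE 0.10, edgeR adjusted p 0.00376). Among 4 relatives of sortilin (median -0.24), Sorcs3 fell from 68.02 ± 3.47 to 52.86 ± 1.16 CPM (-0.36, SE 0.068, edgeR adjusted p 0.00399). The groups did not overlap for any of these 3 genes, and each was called in every setting and in every fit without 1 library. Among 10 granins and genes of dense core vesicle release (median -0.027), Chgb, a granin, rose from 512.4 ± 34.2 to 611.2 ± 24.1 CPM (log2 fold change 0.25, edgeR adjusted p 0.018). Chgb did not pass without Control replicate 1 (0.24, adjusted p 0.0617) or 3 (0.22, 0.126) and without CBP-ifKO replicate 1 (0.23, 0.0716) or 3 (0.26, 0.0799). Pcsk1 and Plat are also on the study's list named above.

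The partners of p75 held 5 calls among 12 genes, 4 lower and 1 higher (median -0.11), beside 6.39% of all genes tested called. Rtn4rl1 and Rtn4r, related receptors that bind inhibitors of axon growth and can pair with p75, fell by 0.44 (edgeR adjusted p 0.0048) and by 0.50 (edgeR adjusted p 0.00557) on the log2 scale. Lingo1, a co-receptor in that complex, fell by 0.49 (edgeR adjusted p 0.00961). Rtn4r was no longer called with GC and length trends removed (-0.24, adjusted p 0.112; with the block 0.075). Lingo1 was not called without Control replicate 3 (-0.46, adjusted p 0.0558), or CBP-ifKO replicates 2 (-0.39, 0.0861) or 3 (-0.47, 0.0606). The remaining calls, Rtn4rl2 (-0.71, edgeR adjusted p 0.0302) and Zfp110 (0.34, edgeR adjusted p 0.0446), were named after their values were seen. Rtn4rl2 passed in 1 of the 6 fits without a library, that without Control replicate 3, with values from -0.80 to -0.58 over the 6. It was not called with GC and length trends removed (-0.29, adjusted p 0.347; with the block 0.346) or with DESeq2 (adjusted p 0.0978). Zfp110 likewise passed in 1 of the 6, that without Control replicate 2, with values from 0.27 to 0.39, and was not called with DESeq2 (adjusted p 0.0756).

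Among 38 Trk adaptors and downstream kinases, 1 gene was lower and 1 higher (median -0.037). This is near the shares of all genes tested, of which 4.99% were called lower and 1.4% higher. Shc3, an adaptor of Trk receptors in neurons, fell from 61.94 ± 1.71 to 48.61 ± 4.27 CPM (-0.36, edgeR adjusted p 0.00874). Crk, an adaptor of several receptor kinases, rose from 170.1 ± 3.20 to 195.3 ± 7.98 CPM (0.20, edgeR adjusted p 0.0479). Shc3 was not called without CBP-ifKO replicate 2 (-0.29, adjusted p 0.072) or 3 (-0.33, 0.0676). Crk was called in 1 of the 6 fits without a library, that without Control replicate 2, with values from 0.18 to 0.23. Its adjusted p was 0.0525 with the replicate block and 0.0735 with GC and length trends removed (0.17). Of the other neurotrophic factor systems, 13 of 20 genes were tested (median -0.07), and Gfra2, the receptor subunit for neurturin, fell from 12.38 ± 1.46 to 7.748 ± 1.43 CPM (-0.67, edgeR adjusted p 0.0139). Without CBP-ifKO replicate 3 its value was -0.54 (adjusted p 0.092). Gfra2 is on the study's list as well.

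Of 13 genes known to regulate Bdnf transcription, 2 were lower and 1 higher (median -0.017), beside 6.39% of all genes tested called. Mef2d, an activity-dependent activator, fell from 85.91 ± 6.22 to 63.87 ± 6.38 CPM (-0.43, SE 0.080, edgeR adjusted p 0.00377). Arnt2, which binds DNA as the partner of Npas4, fell from 212.2 ± 14.9 to 168.4 ± 5.04 CPM (-0.33, SE 0.063, edgeR adjusted p 0.00401). Rest, a repressor of neuronal genes, rose from 14.44 ± 0.905 to 19.3 ± 1.32 CPM (0.42, edgeR adjusted p 0.0273). The calls of Mef2d and Arnt2 held in every setting and without each library. Rest was not called without Control replicate 1 (0.42, adjusted p 0.058) or 3 (0.37, 0.139), without CBP-ifKO replicate 2 (0.45, 0.0646) or 3 (0.37, 0.131), or with DESeq2 (adjusted p 0.051). Npas4, an activity-induced activator of Bdnf, was at 2.347, 7.300 and 5.554 CPM in Control and at 3.392, 1.643 and 3.703 CPM in CBP-ifKO. Its groups overlapped, and its log2 fold change of -0.85 (SE 0.34) did not pass (edgeR adjusted p 0.153). It is given because it binds DNA with Arnt2, and was named after its values were seen.

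**Figure D4:**
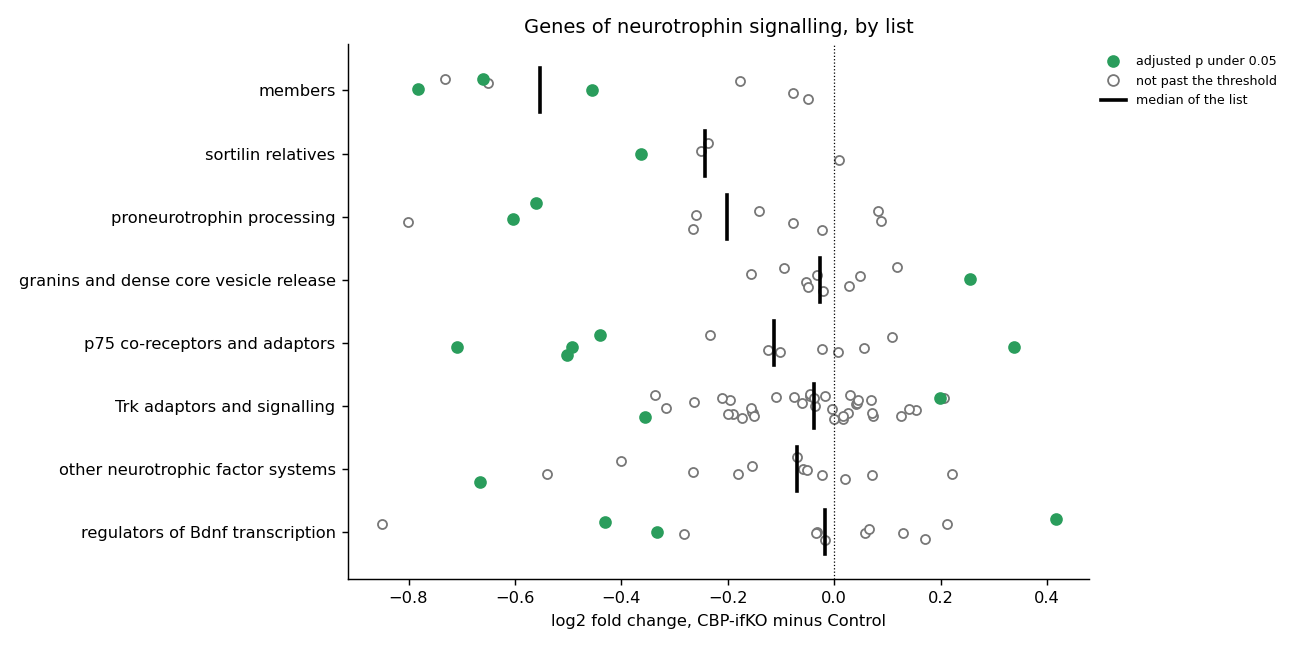
Log2 fold change (CBP-ifKO minus Control, horizontal axis) of each tested gene of the 8 members and of the 7 lists of related genes, with 1 row per list. Filled points have an edgeR adjusted p under 0.05 and vertical bars are list medians. The median of the members is at -0.55, and those of the other lists lie between -0.24 and -0.017.

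The 5 genes whose levels moved most like those of Bdnf were Klk8, Ppp1r1a, Osbpl10, Kcnh3 and Acvr1c. Likeness was the root mean square difference of log2 CPM, centred on each gene's mean, over the 6 libraries, among 12236 genes with at least 5 CPM. It was 0.0423 for Klk8, 0.0624 for Ppp1r1a, 0.063 for Osbpl10, 0.0665 for Kcnh3 and 0.0678 for Acvr1c, against a median of 0.358 over the genes compared. Klk8 encodes the secreted serine protease neuropsin and had a log2 fold change of -0.63 (edgeR adjusted p 0.0248). Ppp1r1a, the phosphatase inhibitor 1, had -0.73 (edgeR adjusted p 3.06e-04) and Osbpl10, of the oxysterol-binding protein family, had -0.76 (edgeR adjusted p 0.0019). The potassium channel gene Kcnh3 and the activin receptor gene Acvr1c were at -0.70 and -0.73. These values share their 6 libraries and their scaling with Bdnf, and a gene with a like difference between the groups is near it by construction.

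Markers of hippocampal cell types moved with the groups in part. Their counts, here and in the next paragraph, are to be read beside 4.99% of all genes tested called lower and 1.4% called higher. The groups were apart for 25.6% of all single genes, and no such share was drawn up for sums of genes. The summed level of 6 CA1 markers was 479.7 to 486 CPM in Control and 321.3 to 346.1 CPM in CBP-ifKO, and 5 of the 6 were called lower (median log2 fold change -0.51). The 6 CA3 markers summed to 387.8 to 413 and 342.2 to 355.2 CPM (1 called lower), and 8 interneuron markers to 558.1 to 592.7 and 505.4 to 538.2 CPM (2 called lower). These sums did not overlap between the groups, nor did that of 8 astrocyte markers, at 1840 to 1895 and 1704 to 1787 CPM. The sum of 7 dentate granule cell markers was higher in CBP-ifKO, at 531.4 to 564.1 CPM in Control against 564.3 to 613.8 CPM, so these groups were barely apart. The single markers did not move together, with 1 called higher and 1 lower. Their log2 fold changes ran from -2.22 to 0.71 (median -0.047), and 4 of the 7 were below 0. The part of these markers in the lower levels of Bdnf, Vgf and Nrn1 was not tested.

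The markers shared by excitatory neurons had overlapping sums of 2766 to 3167 CPM in Control and 2785 to 3201 CPM in CBP-ifKO, with 1 of 7 called lower. These markers include Camk2a, whose promoter drives the transgene of CBP-ifKO mice. In its chromatin data the study attributes extra reads over the transgene construct to gene dose. The part of Camk2a in these sums was not tested. Sums also overlapped for oligodendrocyte markers (2492 to 2949 and 2546 to 2769 CPM, 1 of 8 called lower), microglia (260.8 to 290.9 and 255.7 to 273.9 CPM), endothelial and mural cells (241.6 to 265.7 and 203.7 to 265.6 CPM) and choroid plexus (40.37 to 53.36 and 30.82 to 54.72 CPM).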

How the data were processed

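Hippocampal RNA was sequenced as single-end reads in 6 samples. Per the labels and the study's methods, the authors trimmed the reads (Trim Galore 0.6.4, FastQC 0.11.8), aligned them with STAR 2.6.1 to GRCm38 and deposited raw counts per gene. Groups came from sample titles, and 99.57% of identifiers matched GENCODE annotation of that build. Counts were tested with edgeR 4.0.16 in R 4.3.3 (quasi-likelihood F-test, TMM scaling, filterByExpr with minimum count 10 and total 15, Benjamini-Hochberg adjustment over all genes tested, threshold 0.05). Intervals are unadjusted, and the SE is the fold change divided by the square root of F. Levels are CPM and their value per kilobase of deposited exon length, as mean ± SD. The fit was tested on simulated counts.

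Named were the 8 members, Crebbp, up to 3 called genes with the smallest p in each list, and the 5 genes of at least 5 CPM nearest to Bdnf. The members and lists were chosen with earlier results of these data known. Some related genes are not reported here. The alternatives were DESeq2 1.42.0, limma-voom (limma 3.58.1), robust dispersions, RLE, upper-quartile and total scaling, no filter, at least 10 counts per library, the replicate block, per-library GC and length trends as offsets (splines with 5 degrees of freedom) without and with that block, and each library left out. For the ratios 1 CPM was also added to both genes. The coefficient of variation between replicates was 6.81%, and genes of few reads had larger counting error.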

Additional observations from a re-analysis of the deposited data

How the results depend on the processing

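With all 6 libraries and 11 other settings, all 8 members kept a negative log2 fold change wherever a value was given (Ngfr in 9). Genes called numbered 1149, against 1854 with the replicate block plus GC and length offsets; higher genes numbered 252, against 514 with library totals only, 413 without a filter and 730 with the block plus offsets. Members called were 3, against 5 with the block plus offsets. The block alone called 1210 genes and 4 members, Ntf3 joining. In their deviations from the group mean, same-numbered libraries correlated by only 0.0769, 0.0369 and 0.00216. Libraries of unlike number were not compared, so whether the numbers pair the samples was not settled. Vgf lost its call with DESeq2 (-0.76) and robust dispersions (-0.78). Ntf3 gained one with robust dispersions (-0.65, adjusted p 0.0484), no filter (-0.64, 0.039), the block (-0.66, 0.0431), the offsets (-0.66, 0.0477) and both (-0.67, 0.0175). Sort1 gained one with DESeq2 (-0.17), limma-voom, robust dispersions (both -0.18) and the block plus offsets (-0.15, 0.0225). With 1 CPM added, Bdnf to Ntf3 reversed, at -0.10. Leaving out 1 library gave 498 to 1326 genes called, 76 to 342 higher and 416 to 984 lower, 2 to 4 members called and 7 to 17 related genes called (7 without CBP-ifKO replicate 3). Log2 fold changes then ran from -0.72 to -0.57 (Bdnf), -0.52 to -0.37 (Nrn1), -0.93 to -0.50 (Vgf), -0.75 to -0.54 (Ntf3), -0.19 to -0.14 (Sort1), -1.07 to -0.51 (Ngfr), -0.091 to 0.003 (Ntrk2, above 0 without CBP-ifKO replicate 2) and -0.18 to 0.015 (Ntrk3, above 0 without Control replicate 1). Ratios ran from -0.68 to -0.50 (Bdnf to Ntrk2), -0.16 to 0.14 (Bdnf to Ntf3), -0.049 to 0.10 (Ntrk2 to Ntrk3) and 0.13 to 0.41 (Nrn1 to Vgf). The causes were not tested. Gene counts do not resolve isoforms or cell types, and the reads of Ngfr and Ntf3 leave wide intervals.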
